A study of Mus musculus with 4 samples.

Results

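The genes described here encode collagen chains, the structural proteins of the extracellular matrix. They are the probe sets with 1 platform gene symbol made of Col, a type number, the letter a and a chain number. The array held 36 such genes on 58 probe sets, and the 18 genes with a signal of 500 or more on any of the 4 arrays are reported with all their probe sets. They are 7 fibrillar genes, 4 basement membrane genes and 7 of other types. The study measured RNA from primary fibroblasts, grown out of e14.5 mouse embryos, on 4 Affymetrix arrays, 1 for each group. The wild-type cells spent 6 h in normoxia, at 21% oxygen, or in hypoxia, at 0.1%, in medium brought to that oxygen level overnight, and 37 °C and 5% CO2 were common to all groups. The tri-CH1 cells, kept in the same ways, carried CH1 deletions in 3 of the 4 alleles of this pair of genes: both of p300 and 1 of CBP, leaving the other CBP allele with its domain. The CH1 domain is the part of these related coactivators that binds the hypoxia-inducible factor HIF, among other partners. The labels do not say how many embryos or cultures each RNA came from.

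Collagen chains assemble in the endoplasmic reticulum, where prolines and lysines are hydroxylated by enzymes that need oxygen, before a helix of intertwined chains is secreted. Fibrillar collagens, of which type I is the main one made by fibroblasts, pack into cross-linked fibrils. Type IV chains form the sheet-like network of basement membranes, type VI chains form beaded filaments around cells, and type VII forms the fibrils that anchor basement membranes to the tissue beneath.

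With 1 array per group there is no replicate error and no test, and the number of arrays limits the precision. Each difference is a log2 ratio of the linear signals of 2 arrays after signals under 200 were raised to 200. Higher and lower, and rose and fell, are used for a difference of at least 2-fold where the brighter array reached 500. A gene is represented by its probe set with the highest mean signal. Where a gene had 2 probe sets at 500, as 1059 genes did, the SD of their log2 ratios for the oxygen comparison was 0.26 (wild type) and 0.31 (tri-CH1), and 0.34 and 0.33 for the genotype differences in normoxia and hypoxia. It is the SD of the difference between the probe sets divided by the square root of 2, and covers disagreement between probe sets only. A lot of its own supplied the array for wild-type normoxia. Lot thus cannot be told apart from oxygen in the wild-type change or from genotype in the normoxia difference. The difference between the oxygen changes of the genotypes also holds that array. The scaled background lay between 139 and 393 on the 4 arrays. The fibroblast label was borne out by 7 of 10 marker genes at 500 or more on each wild-type array and 8 on each tri-CH1 array. On at least 1 array 9 reached 500, Fap, at 367 or less, being the other. Lum and Pdgfra did so only in tri-CH1 cells. Of 5 epithelial markers 3, the keratins Krt8, Krt18 and Krt19, reached 500 on an array, while the defining genes Epcam and Cdh1 and the endothelial Pecam1 read at most 20.3, 36.7 and 38.3. No endothelial, chondrocyte, osteoblast or neural marker on the array reached 500, and 2 of 5 blood markers did. Of 4 muscle markers 1 reached 500, the smooth muscle actin Acta2, at 23246 to 34094. RNA was taken from whole cultures, so fewer cells of a kind and less RNA per cell cannot be told apart.

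Promoter windows from RefSeq (build GRCm38.p6, 250 bases before to 50 after an annotated start) were found for 15 of the 18 genes, in 17 windows. Those below belong to the genes called at 2-fold that had a window, Col11a1 and Col7a1, and to Col4a2, whose window overlaps that of its neighbour Col4a1. The capitals mark matches on either strand to a set of short promoter motifs. The core that HIF binds was searched for as ACGTG, and also with a first guanine as GCGTG, so that these forms share their last 4 letters. The CCAAT box was searched for by those letters, the GC box as GGGCGG, and the TATA box in the form TATAAA. No 2 matches share a base in the windows shown. The windows lie on the plus strand at chr3:114030290-114030589 for Col11a1, chr9:108953336-108953635 for Col7a1 and chr8:11312555-11312854 for Col4a2. Col1a1, Col5a2 and Col12a1 had no window.
Col11a1: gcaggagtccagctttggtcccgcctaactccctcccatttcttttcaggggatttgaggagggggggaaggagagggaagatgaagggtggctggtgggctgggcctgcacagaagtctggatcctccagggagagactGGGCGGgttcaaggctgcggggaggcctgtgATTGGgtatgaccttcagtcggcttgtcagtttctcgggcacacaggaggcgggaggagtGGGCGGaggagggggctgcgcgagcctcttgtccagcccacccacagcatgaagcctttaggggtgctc
Col7a1: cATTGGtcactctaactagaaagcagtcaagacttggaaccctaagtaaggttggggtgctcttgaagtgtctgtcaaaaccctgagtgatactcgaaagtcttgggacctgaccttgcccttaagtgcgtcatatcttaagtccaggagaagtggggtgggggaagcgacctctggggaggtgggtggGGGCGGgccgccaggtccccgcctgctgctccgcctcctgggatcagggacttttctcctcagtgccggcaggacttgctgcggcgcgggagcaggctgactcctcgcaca
Col4a2: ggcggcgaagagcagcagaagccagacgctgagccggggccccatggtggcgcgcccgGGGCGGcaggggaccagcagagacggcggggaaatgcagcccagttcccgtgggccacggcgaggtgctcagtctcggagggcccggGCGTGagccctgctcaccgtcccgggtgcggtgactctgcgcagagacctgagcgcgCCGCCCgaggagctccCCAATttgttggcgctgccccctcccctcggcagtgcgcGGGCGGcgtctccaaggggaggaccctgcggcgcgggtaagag
The Col4a1 and Col4a2 start sites lie on opposite strands 21 bases apart, and their windows share the 78 bases of chr8:11312777-11312854. A HIF core was found in 7 of the 17 collagen windows, those of Col1a2, Col4a1, Col4a2, Col5a1, Col5a3, Col6a2 and Col16a1, against 43.8% of all 32851 windows. The windows of Col11a1 and Col7a1 did not hold this core. GGGCGG occurred in 13 of the 17 windows against 35.7% of all, and CCAAT in 9 of 17 against 37.4%, while TATAAA was in 1 window, that of Col3a1, against 13.6%. A match is a description of the letters and not evidence of binding. The windows of Col4a1 and Col4a2 overlap, as do the 2 of Col6a2, so they are not separate observations.

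By genotype 3 collagen genes passed 2-fold in at least 1 of the comparisons, and by oxygen none did in either genotype. In tri-CH1 cells Col11a1 was higher at both oxygen levels, Col1a1 was higher in hypoxia, and Col7a1 was lower in normoxia. Some of these calls depend on the setting: with each array scaled to the same median Col11a1 had 0.80 in normoxia and Col1a1 0.94 in hypoxia, and with the mean over all probe sets Col11a1 had 0.79 and 0.98 and Col1a1 0.84 in hypoxia, all under 2-fold. Below that threshold the fibrillar and type VI genes lay mostly above wild type and the type IV genes mostly below it. On both tri-CH1 arrays 11 of the 18 genes had a larger signal than on both wild-type arrays, against 26.8% of all 4645 genes that reached 500. For 2 genes, Col4a1 and Col7a1, both tri-CH1 arrays were below both wild-type arrays, against 21.0% of all genes. The other 5 overlapped between genotypes. Col6a3 and Col8a1 count among the 11 by a narrow margin. Col1a2 and Col5a1 each have another probe set at 500 on which the genotypes overlap. These read 15516 and 13355 against 13895 and 14322, and 4427 and 4155 against 3483 and 5443.

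The normoxia signs depend on the scaling for some genes. With each array scaled to the same median, the genotype difference in normoxia had a median of -0.20 over all genes, against 0.03 as deposited. Col5a1, Col6a3 and Col8a1 were then at -0.08, -0.22 and -0.21, below 0, and the collagen median was -0.15. The all-gene median in hypoxia moved less, from 0.05 to -0.03.

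**Figure D1:**
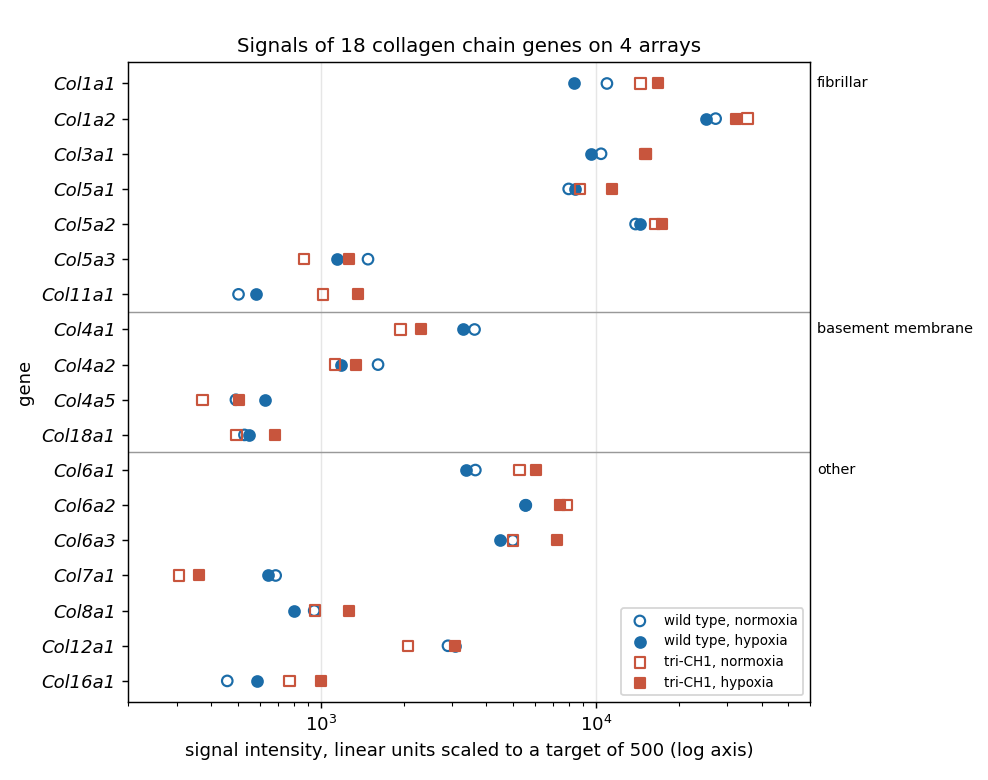
Signal intensity (log axis) of the brightest probe set of each of the 18 collagen genes on the wild-type (circles) and tri-CH1 (squares) arrays, open in normoxia and filled in hypoxia, 1 array per point. Both squares lie to the right of both circles for 11 genes and to the left for Col4a1 and Col7a1; signals of different probe sets are not comparable.

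Col11a1 encodes a chain of type XI collagen, a minor fibrillar type that sits inside fibrils and limits their width. Its signal was 502 in wild-type normoxia, 581 in wild-type hypoxia, 1018 in tri-CH1 normoxia and 1364 in tri-CH1 hypoxia. Both tri-CH1 arrays were above both wild-type arrays, by 2.03-fold in normoxia and 2.35-fold in hypoxia, log2 differences of 1.02 and 1.23. Of the collagen genes bright enough to count it was 1 of 17 called higher in normoxia, where 3.16% of all genes were, and 1 of 2 among 18 in hypoxia, where 3.76% were. These shares rest on 1 or 2 genes. Its dimmer probe set, which did not reach 500, read 270, 297, 398 and 489 in the same order, with differences of 0.56 and 0.72, so it kept the direction without passing 2-fold. Other collagens of cartilage, Col2a1, Col9a1, Col9a2, Col9a3, Col10a1 and Col11a2, stayed under 500 on every array. Col2a1 read 103 and 133 on the wild-type arrays and 236 and 305 on the tri-CH1 arrays, with differences of 0.24 and 0.61. The differences in normoxia and hypoxia were -0.35 and 0.48 for Col9a1, 0.37 and 0 for Col10a1, and -0.10 and 0.20 for Col11a2. Col9a2 and Col9a3 were under 200 on every array. None of 6 chondrocyte markers reached 500. Their summed signal was 534 and 853 for wild type, then 969 and 1112 for tri-CH1. Comp read 26.6 and 164 on the wild-type arrays and 377 and 444 on the tri-CH1 arrays. Sox9 read 199 and 304 against 104 and 297, log2 differences of 0 in normoxia, where both signals were under the floor, and -0.04 in hypoxia. Acan read 138 and 243 against 187 and 228. Matn1 read 60.9 and 43.2 against 139 and 34.6, and Matn3 106.5 and 94.6 against 155 and 96. Cnmd was at 14.2 or less. The scaled background was 139 and 246 on the wild-type arrays, then 343 and 393 on the tri-CH1 arrays. Most of these marker signals lay under it, so they do not measure a genotype difference. The part of that list in the Col11a1 difference was not tested.

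Type I collagen, built from the products of Col1a1 and Col1a2, is the main fibril-forming collagen of fibroblasts. Col1a1 read 10957 and 8308 in wild-type normoxia and hypoxia and 14492 and 16822 in tri-CH1. The tri-CH1 arrays were both above the wild-type arrays, by 0.40 in normoxia and by 1.02, or 2.02-fold, in hypoxia. Its other probe set gave 3459, 3777, 4939 and 5942, with differences of 0.51 and 0.65, so the call in hypoxia rests on 1 of its 2 probe sets. Col1a2 gave 27209 and 25093 for wild type, then 35445 and 32246 for tri-CH1. Its differences of 0.38 and 0.36 stood on 1 probe set, while the other had -0.16 in normoxia and 0.10 in hypoxia. By their brightest probe sets the chains of type I were 0.02 log2 units apart in normoxia and 0.66 in hypoxia, and the other probe sets do not give the same gaps.

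Col3a1 encodes type III collagen, which forms mixed fibrils with type I. It read 10432 and 9564 on the wild-type arrays and 15155 and 15169 on the tri-CH1 arrays. Its differences were 0.54 and 0.67, and those of its dimmer probe set 0.56 and 0.97. All 4 values were above 0, and none reached 2-fold.

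Type V chains start fibril formation and are built into the core of type I fibrils. Col5a1 read 7955 and 8367 on the wild-type arrays and 8742 and 11426 on the tri-CH1 arrays, with differences of 0.14 and 0.45. Its other probe sets ranged from -0.35 to 0.11 in normoxia and from 0.30 to 0.39 in hypoxia, so the direction was shared only in hypoxia. Col5a2 read 13923 and 14510 on the wild-type arrays and 16395 and 17298 on the tri-CH1 arrays, with differences of 0.24 and 0.25 and, on a dimmer probe set, 0.64 and 0.57. Col5a3, the chain found in fewer tissues, ran the other way in normoxia. It read 1484 and 1148 on the wild-type arrays and 867 and 1267 on the tri-CH1 arrays, so that the genotypes overlapped, with differences of -0.78 and 0.14. Another Col5a3 probe set stayed under 25.

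As a group the 7 fibrillar genes had a median genotype difference of 0.38 in normoxia and 0.45 in hypoxia, against 0.03 and 0.05 over all genes. In normoxia 6 of 7 were above 0, Col5a3 being the exception, and in hypoxia 7 of 7. The genes were chosen by a minimum signal and differ in size of effect, so these medians describe the list and test nothing. With each array scaled to the same median the normoxia median of the list was 0.16, where that of all genes was -0.20.

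The basement membrane genes lay lower against wild type than the fibrillar ones. Col4a1 read 3620 and 3288 on the wild-type arrays and 1949 and 2315 on the tri-CH1 arrays, with no overlap, and differences of -0.89 and -0.51. Its second probe set read 2248, 2020, 1633 and 1721, with -0.46 and -0.23. Col4a2, its partner chain and neighbour, read 1614 and 1182 on the wild-type arrays and 1125 and 1347 on the tri-CH1 arrays, so that it was below wild type in normoxia, at -0.52, and above it in hypoxia, at 0.19. Despite the shared start region shown above, the Col4a1 and Col4a2 differences were 0.69 log2 units apart in hypoxia by the brightest probe sets. The second Col4a1 probe set, at -0.23, lay nearer to Col4a2, at 0.19. Either gap is 2 log2 ratios of single arrays and was not tested.

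Col4a5, an X-linked chain of other basement membrane networks, read 492 and 626 on the wild-type arrays and 371 and 506 on the tri-CH1 arrays, with overlap and differences of -0.40 and -0.31. Its other probe set gave 651, 545, 341 and 319, without overlap, and -0.93 and -0.77. Col18a1, which carries the endostatin fragment at its end, read 528 and 547 on the wild-type arrays and 494 and 680 on the tri-CH1 arrays, with differences of -0.10 and 0.32. A dimmer Col18a1 probe set that never reached 500 gave 1.19 and 0.78, from wild-type signals of 199 and 234, so the probe sets disagreed in normoxia. The 4 basement membrane genes had a median of -0.46 in normoxia, with all 4 below 0, and of -0.06 in hypoxia, with 2 above 0 and 2 below.

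Among the other types, Col7a1, the anchoring fibril chain, had the lowest ratio. It read 686 and 642 on the wild-type arrays and 305 and 361 on the tri-CH1 arrays, with no overlap. It was 2.25-fold lower in normoxia, and its hypoxia difference of -0.83, or 1.78-fold, was not past the threshold. In normoxia 1 of the 17 counted collagen genes was lower, against 3.48% of all genes, and in hypoxia 0 of 18, against 3.31%. Col7a1 passed the minimum of 500 through its wild-type arrays alone, its tri-CH1 signals were close to the scaled background of 343 and 393 on those arrays, and it has 1 probe set. With a floor of 400 its normoxia difference was -0.78.

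The type VI chains assemble together into 1 molecule, and all 3 genes were above 0 at both oxygen levels with the deposited scaling, Col6a3 in normoxia not with the same-median one. Col6a1 read 3644 and 3371 on the wild-type arrays and 5268 and 6064 on the tri-CH1 arrays, with differences of 0.53 and 0.85. Col6a2 read 5559 and 5532 on the wild-type arrays and 7848 and 7426 on the tri-CH1 arrays, with 0.50 and 0.42, and 0.41 and 0.60 on its other probe set. Col6a3 read 4982 and 4483 on the wild-type arrays and 4991 and 7211 on the tri-CH1 arrays. Its normoxia values were alike, and its hypoxia difference was 0.69.

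Col8a1, a short-chain network collagen of vessel walls and Descemet's membrane, followed Col6a3, with 946 and 798 for wild type, then 953 and 1268 for tri-CH1, and differences of 0.01 and 0.67. Col16a1, a fibril-associated chain, read 457 and 587 on the wild-type arrays and 770 and 1002 on the tri-CH1 arrays, with differences of 0.75 and 0.77. Col12a1, another fibril-associated chain that coats type I fibrils, read 2898 and 3062 on the wild-type arrays and 2073 and 3066 on the tri-CH1 arrays. Only its tri-CH1 normoxia array stood apart, and its differences were -0.48 and 0.00.

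**Figure D2:**
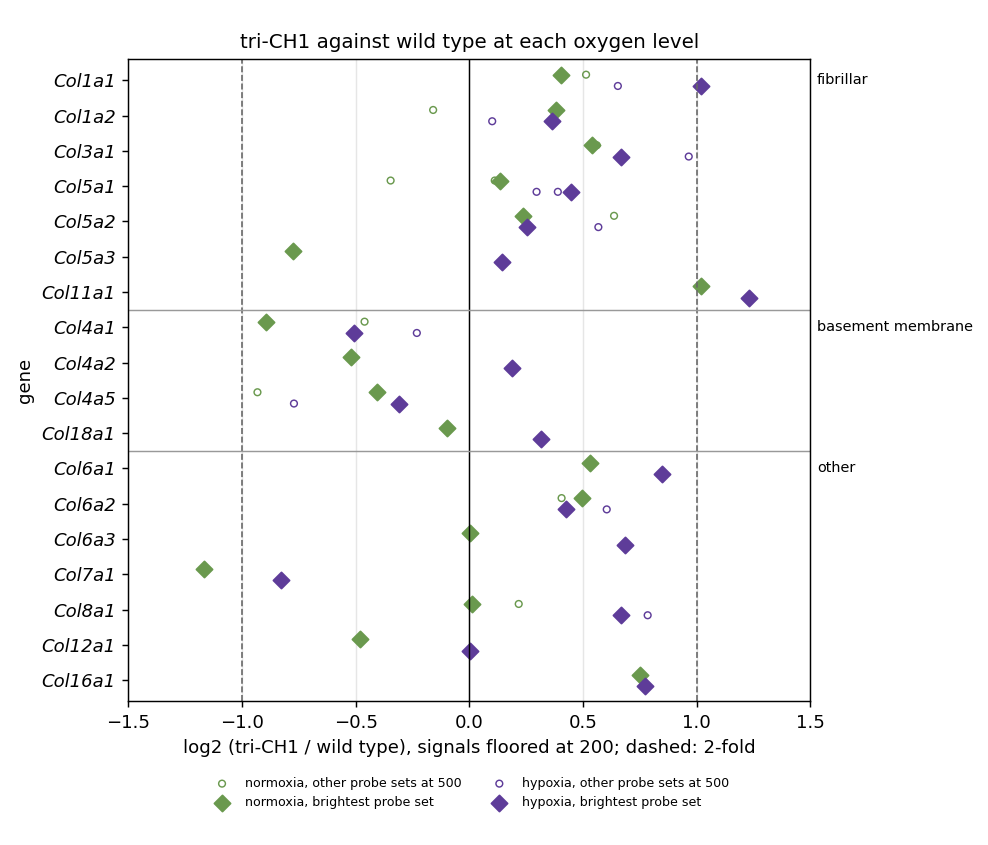
Log2 ratio of tri-CH1 to wild type for each collagen gene in normoxia (green) and hypoxia (purple), diamonds for the brightest probe set and open circles for its other probe sets at 500 or more, with dashed lines at 2-fold. Col11a1 is at or past 2-fold at both oxygen levels and Col1a1 in hypoxia, Col7a1 is past it the other way in normoxia, and the fibrillar and type VI genes lie mostly right of 0 and the type IV genes mostly left.

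The normoxia and hypoxia genotype differences share no array. Of the 18 genes, 11 were above 0 at both oxygen levels, 3 (Col4a1, Col4a5 and Col7a1) below 0 at both, and 4 (Col4a2, Col5a3, Col12a1 and Col18a1) below in normoxia and above in hypoxia. The same sign was thus seen for 77.8% of the collagen genes and 70.5% of all genes. Pearson's r between both sets of differences was 0.88 over the 18 genes and Spearman's rho 0.85, against 0.70 and 0.58 across all genes. The points share 4 arrays and the cultures of 2 genotypes, and genes are not independent replicates. With the same-median scaling 12 of 18 kept a shared sign. Of the 9 genes with more than 1 probe set at 500, all probe sets of a gene had the same sign in hypoxia in each case, above 0 for Col1a1, Col1a2, Col3a1, Col5a1, Col5a2, Col6a2 and Col8a1 and below for Col4a1 and Col4a5. In normoxia this held for 7, the probe sets of Col1a2 and Col5a1 being mixed. For 6 of these 9 genes the probe sets were designed on the same transcript record, so they share a target.

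Neighbouring collagen genes did not always have like differences. Col3a1 and Col5a2 are adjacent on chromosome 1, with 0.54 against 0.24 in normoxia and 0.67 against 0.25 in hypoxia. Col6a1 and Col6a2 are adjacent on chromosome 10, with 0.53 against 0.50 and 0.85 against 0.42. Col4a1 and Col4a2, on chromosome 8, had -0.89 against -0.52 and -0.51 against 0.19. Each pair had the same sign in normoxia, and the type IV pair parted in hypoxia.

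Of the 10 fibroblast markers, 1 was higher and 1 lower in tri-CH1 in normoxia, and 2 were higher and 1 lower in hypoxia. Fap was not bright enough to count, nor was Pdgfra in normoxia. The shares of all genes were 3.16% higher and 3.48% lower in normoxia, and 3.76% and 3.31% in hypoxia. In the lists of other cell types 0 markers passed 2-fold by genotype with a signal of 500. The fibroblast surface protein gene Thy1 read 13148 and 12389 on the wild-type arrays and 3837 and 3274 on the tri-CH1 arrays, and was lower at both oxygen levels. The matrix proteoglycan Lum read 355 and 419 against 1562 and 2684, and was higher at both. Dcn, which decorates collagen fibrils, read 940 and 617 against 1308 and 1488, and was higher in hypoxia. The smooth muscle actin Acta2 read 33735 and 34094 against 24629 and 23246. Over the 10 fibroblast markers the summed signal was 107353 and 105060 for wild type, then 106493 and 99892 for tri-CH1. Single members differed more than this sum, in which bright members such as Vim, at 32666 to 38903, weigh most. Over the 4 muscle markers, of which Acta2 alone reached 500, the sum was 34292 and 34607 against 25221 and 23822. Their part in the collagen differences was not tested.

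Hypoxia did not move a collagen gene past 2-fold. In wild-type cells 0 of 18 collagen genes rose and 0 fell in hypoxia, where 3.05% of all genes rose and 1.19% fell. The log2 changes ran from -0.45 for Col4a2 to 0.36 for Col16a1, with a median of -0.10 against -0.05 over all genes. The change was below 0 for 11 genes and above for 7. Besides Col4a2, Col1a1 at -0.40 and Col5a3 at -0.37 were lowest. For Col1a1 the second probe set had 0.13, and for Col4a5, at 0.35, it had -0.26. The widest range among the probe sets of a gene, 0.60, exceeded the largest change of the list in size. The 5 epithelial markers had summed signals of 985 in wild-type normoxia, 4817 in wild-type hypoxia, 1251 in tri-CH1 normoxia and 3224 in tri-CH1 hypoxia. In hypoxia most of it came from the keratin Krt19, at 3881 and 2676 against 145 and 423 in normoxia, with Epcam and Cdh1 as low as given above. Krt8 went the other way in tri-CH1, with 502 in normoxia and 192 in hypoxia, and fell past 2-fold. The fibroblast marker Pdgfrb fell in wild-type hypoxia, from 1337 to 518. Their part in the collagen values was not tested.

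In tri-CH1 cells 0 of 17 counted genes rose and 0 fell, where 3.19% and 0.987% of all genes did. The changes ran from -0.14 for Col1a2 to 0.56 for Col12a1, and 16 of the 18 were above 0, against 46.2% of all genes. The median was 0.32, against -0.03 over all genes. The largest were those of Col12a1, Col5a3 at 0.55, Col6a3 at 0.53, Col18a1 at 0.46 and Col4a5 at 0.45. The other probe set of Col4a5 had -0.10, and the dimmer one of Col18a1, which never reached 500, had -0.19. Of the 9 genes with more than 1 probe set at 500, 5 had all of them above 0 and 4 were mixed. By their brightest probe sets Col1a2 and Col6a2 were below 0, and Col3a1 read 15155 and 15169. By type the medians were 0.22 for the fibrillar, 0.35 for the basement membrane and 0.38 for the other genes, against -0.12, -0.04 and -0.09 in wild type.

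The change was above 0 in tri-CH1 and below 0 in wild type for 9 genes, and the reverse for none. Across all 4645 genes these counts were 852 and 698. Subtracting the wild-type change from that in tri-CH1 gave a median of 0.33 over the 18 genes and 0.03 over all genes, and it was above 0 for 16 of 18, against 53.0% of all genes. The value was largest for Col5a3 at 0.92, Col4a2 at 0.71, Col6a3 at 0.68 and Col8a1 at 0.66. It equals the hypoxia genotype difference minus the normoxia one, so it is not a further observation. This difference has no replicate check, and no interaction could be tested. The probe sets of 6 of 9 genes were all above 0 and those of the other 3 mixed.

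**Figure D3:**
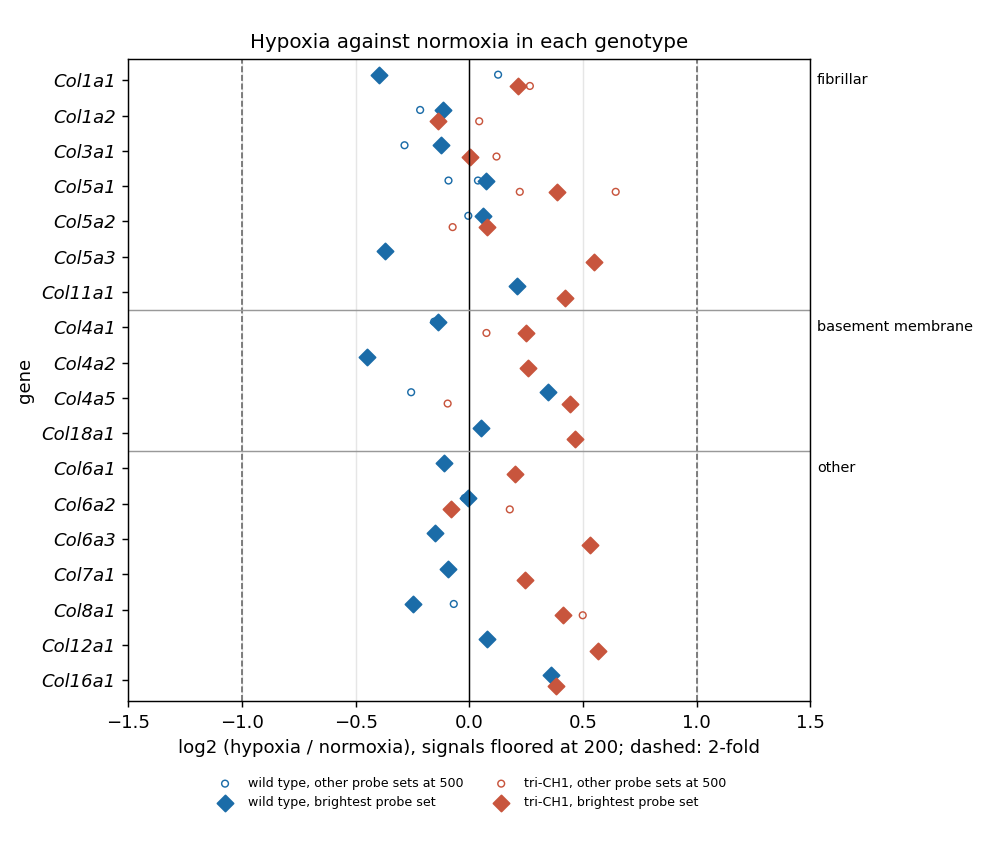
Log2 ratio of hypoxia to normoxia for each collagen gene in wild type (blue) and tri-CH1 (red), diamonds for the brightest probe set and open circles for other probe sets at 500 or more, with dashed lines at 2-fold. No value reaches 2-fold; 16 of the 18 tri-CH1 values and 7 of the 18 wild-type values lie above 0.

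The chains of 1 molecule did not always have equal oxygen changes. In tri-CH1 the type VI genes had 0.20 for Col6a1, -0.08 for Col6a2 and 0.53 for Col6a3, and in wild type all 3 were between -0.15 and -0.01. For type V the changes were 0.39, 0.08 and 0.55 for Col5a1, Col5a2 and Col5a3 in tri-CH1 and 0.07, 0.06 and -0.37 in wild type. Col1a1 and Col1a2 had 0.22 and -0.14 in tri-CH1. The other Col6a2 probe set had 0.18 in tri-CH1, which lies near Col6a1.

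Genes that act on collagen were read from 6 lists, of which 38 members reached 500. The lists were chosen with earlier results of these data known, so their counts describe the lists and test nothing. In hypoxia 4 of 36 counted rose in wild type, where 3.05% of all genes rose, and 4 of 35 did in tri-CH1, where 3.19% did. In these lists 0 genes fell, against 1.19% and 0.987% of all genes. All of these belong to the 10 genes of proline and lysine hydroxylation. P4ha1 and P4ha2, catalytic subunits of the prolyl hydroxylase that stabilises the collagen helix, rose by 1.09 and 2.04 on the log2 scale in wild type and by 1.02 and 2.41 in tri-CH1. The lysyl hydroxylases Plod1 and Plod2, whose products prepare cross-links, rose by 1.27 and 2.02 in wild type and by 1.33 and 1.89 in tri-CH1. P4hb, the disulfide isomerase that is the other subunit of the prolyl hydroxylase, had 0.43 and 0.35, Plod3 had 0.10 and -0.30, and Crtap, Serpinh1 and Ppib, which chaperone or modify new chains, lay between -0.35 and 0.10. The copper oxidase Lox, which starts cross-linking, had 0.62 and 0.47. These 4 enzyme genes, of the 10 in their list, were past 2-fold on the arrays on which no collagen chain was.

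By genotype, 1 of 37 counted members of these lists was higher in normoxia and 3 were lower, and 1 of 36 was higher and 1 lower in hypoxia. Over all genes 3.16% were higher and 3.48% lower in normoxia, and 3.76% and 3.31% in hypoxia, so counts of 1 are near the background and are given as values only. The cross-linking enzyme Loxl4 was higher in normoxia, at 1.24, and the collagen-degrading cathepsin Ctsk lower, at -1.30. Mmp9, a gelatinase, was also lower in normoxia, where its tri-CH1 signal of 175 was under the floor, so its log2 difference of -1.43 is a bound. The propeptide-cleaving proteases Tll1 and Bmp1 were lower in normoxia, at -1.52, and in hypoxia, at -1.17, respectively. The tri-CH1 signals behind these calls, 224 for Tll1 and 376 for Bmp1, were under the scaled background of 343 and 393 on those arrays. Ddr2, a receptor kinase that binds fibrillar collagen, was higher in hypoxia, at 1.02, with 0.62 in normoxia. Pcolce, the enhancer of propeptide removal, had 0.41 and 0.82, and the integrin chain Itgb1 -0.47 and -0.40. Those calls are spread over 4 of the 6 lists.

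**Figure D4:**
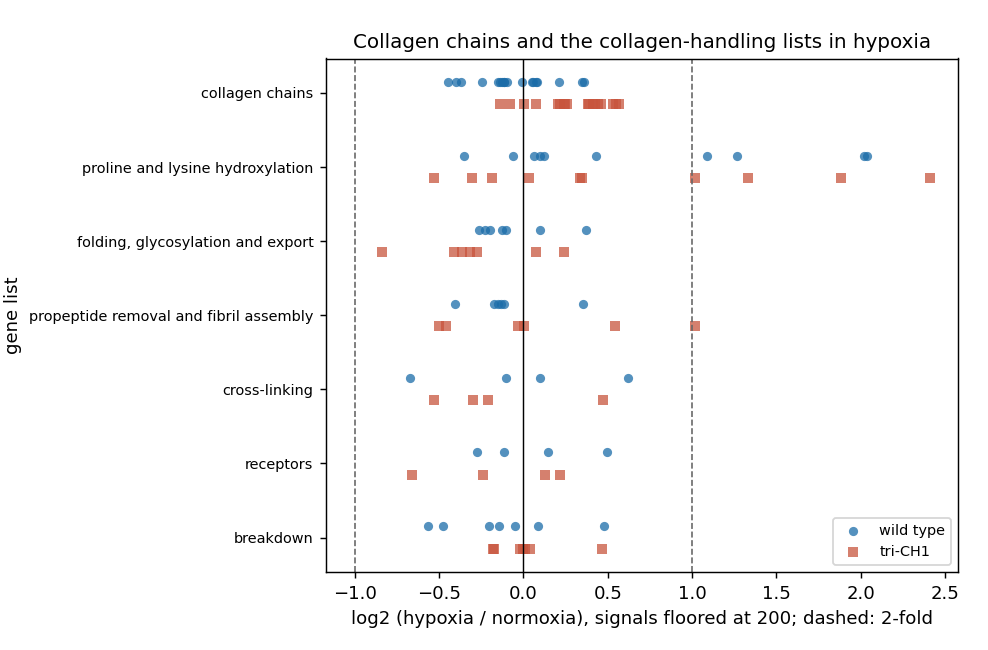
Log2 ratio of hypoxia to normoxia for the 18 collagen genes and for the members of 6 collagen-handling lists at 500 or more, in wild type (circles) and tri-CH1 (squares), with dashed lines at 2-fold. In both genotypes 4 hydroxylation genes are past 2-fold and no collagen chain is; the tri-CH1 square just past the line among the propeptide genes is Tll1, which stayed under 500 in both tri-CH1 arrays and was not counted.

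The 18 collagen genes that never reached 500 were Col2a1 and Col11a2 among the fibrillar, Col4a3, Col4a4, Col4a6 and Col15a1 among the basement membrane genes, and Col9a1, Col9a2, Col9a3, Col10a1, Col13a1, Col14a1, Col17a1, Col19a1, Col20a1, Col22a1, Col25a1 and Col26a1. Of these, 9 stayed under 200 on every array. Col25a1, a transmembrane collagen, came closest to the minimum, with a highest signal of 427, and Col4a5 was nearest on the inside, with 651. At these signals an absence of RNA cannot be told from a weak probe set. Of the reported genes 14 reached 500 on all 4 arrays with their brightest probe set, and 4 (Col4a5, Col7a1, Col16a1 and Col18a1) on some only.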

How the data were processed

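RNA from 4 groups with 1 array each was compared. Per the labels, the authors derived a signal intensity for every probe set by the Statistical algorithm of Affymetrix and multiplied each array by 1 factor (3.46, 6.73, 10.3 and 8.70 for wild type in normoxia and hypoxia and tri-CH1 in normoxia and hypoxia) to a target of 500. The deposited intensity values are linear. The software is not given in the sources used here. As computed here, the 2% trimmed mean was 500.2 on each array.

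Gene names came from the annotation of the platform: 20380 of 22690 had 1 symbol, 691 several, 1555 none and 64 were controls, and 12393 genes resulted. All 58 collagen probe sets matched RefSeq by gene number, and 0 symbols were updated. Each gene took its brightest probe set by mean signal. Signals under 200 were raised to 200 and log2 ratios taken. No test was run. The 2-fold rule was tested on simulated data with known folds. Every collagen gene at 500 or more was named; of the collagen-handling lists, genes past 2-fold and up to 6 others per list were named. The members and lists were chosen with earlier results of these data known. Alternatives were floors of 100 and 400 or none, minimum signals of 250 and 1000, quantile, cyclic loess and same-median scaling, averaging every probe set of a gene, and keeping those ending in plain _at. The mean over probe sets at 500 was added after seeing the data. Python 3.11.15, numpy 2.4.6, pandas 2.3.3, scipy 1.17.1, matplotlib 3.10.9, R 4.3.3 and limma 3.58.1 were used.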

Additional observations from a re-analysis of the deposited data

Results flagged for a closer look

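Col5a3 had hypoxia changes in opposite directions in the genotypes, both larger than the SD between probe sets: wild type had a log2 change of -0.37 and tri-CH1 one of 0.55. With 1 array per group each direction rests on 1 pair of arrays, and the difference was not tested. Its other probe set stayed under 25 on every array and gave no second reading.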

How the results depend on the processing

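Over the alternative settings, 135 of 143 values of the collagen list (medians and counts called) stayed within the SD between probe sets or within 1.5 times, and 8 counts moved. All 8 are genotype counts, which hold at most 2 genes. The count lower in normoxia, 1, became 0 with a floor of 400, which put Col7a1 at -0.78, and with a minimum of 1000, which left that gene out, and 2 with same-median scaling, which added Col4a1. The count higher in normoxia, 1, became 0 with same-median scaling and with the mean over all probe sets, which put Col11a1 at 0.80 and 0.79. The count higher in hypoxia, 2, became 1 with same-median scaling and with the mean over probe sets at 500, where Col1a1 had 0.94 and 0.84, and 0 with the mean over all probe sets, where Col11a1 had 0.98. The counts of 0 for hypoxia stayed 0 under each of these settings. The same-median scaling moved the median of all genes in normoxia by genotype from 0.03 to -0.20, and that of the collagen genes from 0.07 to -0.15. The median oxygen change in tri-CH1 ranged from 0.24 to 0.39. Of 955 values of single genes, 946 stayed within that SD, 9 moved, and 0 calls turned direction. The largest of the moves was Col18a1 in normoxia by genotype, 0.55 with the mean over all probe sets against -0.10. No replicate could be left out, and no paired analysis was possible because each group has 1 array. Signals near or under the scaled background limit Col7a1, Col4a5 and the dimmer probe set of Col18a1. The same holds for Tll1, Bmp1 and Mmp9 in the collagen-handling lists.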
